A study of Mus musculus with 12 samples.

Results

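MicroRNA genes were described across 4 groups of mouse T cells, as 296 of the 19938 genes that a whole-transcript array could name. A gene was taken as a microRNA gene where its array row had a single platform symbol starting with Mir and a digit or with Mirlet. Genes named as microRNA hosts by a symbol ending in hg (4 genes) were left out, and the brightest row over all 12 arrays stood for a gene with several rows, which concerned only Mir713. No measured difference entered this choice. The cells were CD8+CD28low regulatory T cells from C57Bl/6 mice that lack or carry Aire, a gene whose product makes the thymus show tissue proteins to developing T cells. The 4 groups were activated AIRE ko cells (KO), activated AIRE wt cells (WT), native KO cells and native WT cells, with 3 arrays each. Activated cells had spent 96 h in culture with anti-CD3 antibody and allogenic antigen-presenting cells, and native cells were freshly isolated. The array titles speak of biological replicates. The labels do not state the number of mice behind an array, how Aire was disrupted or how the cells were isolated, so the p-values measure the spread between these arrays.

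A microRNA begins as a hairpin in a longer primary transcript, which Drosha and its partner Dgcr8 trim in the nucleus. Exportin 5, encoded by Xpo5, and Ran carry the hairpin out, Dicer cuts it to a short duplex, and an Argonaute protein keeps 1 strand of it. That strand finds messenger RNAs by pairing through its seed, bases 2 to 8, and the GW182 proteins (Tnrc6a to Tnrc6c) then slow translation and shorten the life of the messenger. Whole-transcript labelling of column-purified RNA reads RNA that spans the hairpin locus, such as the primary transcript or an intron of a host gene. The values below are therefore levels of RNA from microRNA loci and not of mature microRNAs. In T cells, miR-155 is known to be needed for effector responses, the miR-17 to miR-92 cluster for expansion, miR-150 marks mature lymphocytes and miR-142 is made throughout the blood lineages.

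RefSeq sequences of GRCm38.p6 were found for 270 of the 296 genes. The strands below belong to the microRNA genes that the results turn on, in lower case with the seed in capitals and grouped by seed, since microRNAs with the same seed are expected to share targets. The first set has the seed of miR-15 and miR-16, and it holds a gene called higher (Mir15a) and a gene called lower (Mir16-2) in activated cells.
mmu-miR-15a-5p: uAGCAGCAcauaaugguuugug
mmu-miR-15b-5p: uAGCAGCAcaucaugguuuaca
mmu-miR-16-5p: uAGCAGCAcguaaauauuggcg
mmu-miR-195a-5p: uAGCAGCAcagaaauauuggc

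The second set holds the let-7 seed, of which 3 genes were above background in a group and all 3 were called lower in activated cells.
mmu-miR-98-5p: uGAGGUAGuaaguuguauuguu
mmu-let-7d-5p: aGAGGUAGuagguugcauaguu
mmu-let-7a-5p: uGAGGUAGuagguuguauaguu

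The miR-7 set comes from Mir7-1 and Mir7-2, which give the same miR-7a strand, and from Mir7b.
mmu-miR-7a-5p: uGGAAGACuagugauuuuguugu
mmu-miR-7b-5p: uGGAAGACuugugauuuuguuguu

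The miR-19 set lies in the miR-17 cluster.
mmu-miR-19b-3p: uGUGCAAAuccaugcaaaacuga
mmu-miR-19a-3p: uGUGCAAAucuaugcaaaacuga

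The remaining strands come from single genes with the largest changes, or from genes known for a role in T cells.
mmu-miR-505-3p: cGUCAACAcuugcugguuuucu
mmu-miR-30e-5p: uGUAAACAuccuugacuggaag
mmu-miR-677-5p: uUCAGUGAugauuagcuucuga
mmu-miR-155-5p: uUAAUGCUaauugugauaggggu
mmu-miR-301b-5p: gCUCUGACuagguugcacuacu
mmu-miR-342-3p: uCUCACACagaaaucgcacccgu
mmu-miR-142a-3p: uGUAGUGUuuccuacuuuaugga

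The hairpins of Mir7-1 (chr13:58392779-58392886, minus strand) and Mir30e (chr4:120772606-120772697, minus strand) are printed whole, with both mature arms in capitals, to show where the mature strands lie in the hairpin.
Mir7-1: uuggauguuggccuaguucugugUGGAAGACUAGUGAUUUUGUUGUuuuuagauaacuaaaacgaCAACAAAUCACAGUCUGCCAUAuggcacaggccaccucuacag
Mir30e: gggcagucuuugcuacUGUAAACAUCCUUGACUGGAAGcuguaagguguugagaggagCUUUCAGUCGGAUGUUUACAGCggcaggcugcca

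Most microRNA genes gave no signal that could be told from background. Background on an array was set at the 95th percentile of 1027 olfactory receptor genes, which T cells are not known to use, and a gene counted as above it in a group where all 3 arrays were. Of the 296 genes, 29 (9.8%) were above background in activated KO cells, 45 (15.2%) in activated WT cells, 61 (20.6%) in native KO cells and 67 (22.6%) in native WT cells. Among all genes the shares were 31.5%, 41.9%, 45.4% and 45.2% in the same order, and among the olfactory receptor genes 2.34%, 2.53%, 2.92% and 2.73%. At least 1 group was above background for 73 microRNA genes (24.7%), against 48.2% of all genes, and all 12 arrays were for 26. On no array was the signal of 180 genes above background. The count in activated KO cells rests on array 3, whose background of 7.31 stood above the 6.12 to 6.72 of the other arrays: without that array 66 genes were above background there. Only 2 arrays then had to be above background, so 66 does not compare with the counts of the other groups. With 2 of 3 arrays sufficient in each group, the shares were 22.3%, 23.6%, 25.7% and 31.4% in the same order. Among all genes they were 48.7%, 48.5%, 47.7% and 48.9% under that rule. Genes above background in both native groups and in neither activated group numbered 16, and 2 genes showed the reverse. For these counts, 1 array under its background in each group of the other state was enough. Where all 6 arrays of the other state had to be at background, the counts were 2 and 1. The same counts over all genes are not given here.

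**Figure D1:**
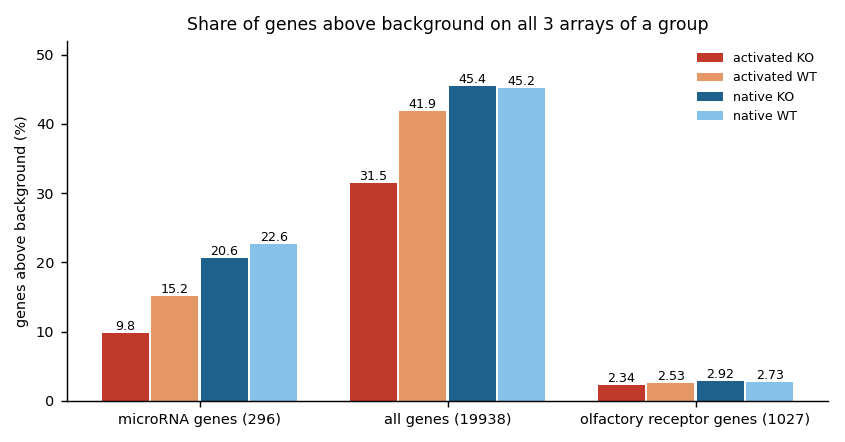
Share of genes (%) above background on all 3 arrays of a group, for microRNA genes, all genes and olfactory receptor genes; each bar is a group, with its value above it. The microRNA genes lie between the other classes, at 9.8% to 22.6%.

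Aire itself was at 5.55 to 5.92 on the 12 arrays, below background on each, so it does not check the genotype labels. The arrays differed in ways that touch the values below. All 7 measured CD8 T cell markers were above background in all 4 groups. Their list means were 10.75 to 11.96 in activated KO and 11.61 to 11.97 in activated WT cells, against 12.03 to 12.1 in native KO and 12.03 to 12.09 in native WT cells, so every activated array lay below every native one, while Cd4 and Cd40lg were at background on every array. The 9 neutrophil markers averaged 5.28 to 5.65 on activated KO arrays and 5.32 to 5.53 on activated WT arrays, against 7.98, 5.93 and 7.32 on native KO arrays 1 to 3 and 6.41, 5.76 and 5.37 on native WT arrays 1 to 3, and 2 of the 9 were above background in native KO cells and 0 in each other group. The 3 NK cell markers averaged 5.89 to 6.51 in activated KO and 5.72 to 6.09 in activated WT cells, against 6.74 to 7.78 in native KO and 6.41 to 7.13 in native WT cells, with 1 above background in activated KO, 0 in activated WT and 3 in each native group. The 9 macrophage and dendritic cell markers averaged 5.49 to 5.79 in activated KO and 5.47 to 5.61 in activated WT cells, with 0 above background in each, against 5.93 to 6.67 (3 above) in native KO and 5.59 to 6.03 (1 above) in native WT cells. Xist, the RNA that coats an inactive X chromosome, was at 4.98 on activated KO array 1 and 5.26 on native KO array 1, against 9.34 to 11.47 on the other 10 arrays. In bulk RNA, fewer cells of a type and less RNA per cell cannot be told apart. The part that these differences have in the microRNA results was not tested.

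A minority of microRNA genes differed in signal between activated and native cells. Most of these were lower in activated cells, by similar amounts in KO and WT cells. Native and activated arrays are listed under separate experiment numbers, and only activated cells were cultured with antigen-presenting cells. Activation, culture and experiment therefore cannot be told apart. Between activated and native KO cells 29 of 296 genes passed the test (limma with Benjamini-Hochberg adjustment over all genes, adjusted p under 0.05), 5 higher and 24 lower in activated cells, or 9.8% against 20.1% of all genes. Between activated and native WT cells 38 passed, 6 higher and 32 lower, or 12.8% against 20.6% of all genes. Calls lower in activated cells made up 11.4% of all genes in KO and 10.9% in WT, and calls higher in activated cells 8.72% in KO and 9.72% in WT. Among the 73 microRNA genes above background in a group, 18 passed in KO cells (2 higher, 16 lower) and 19 in WT cells (2 higher, 17 lower). That is 24.7% in KO cells and 26% in WT cells, against 36.4% in KO (14.8% higher, 21.6% lower) and 37.4% in WT (16.8% higher, 20.6% lower) among all genes above background. The other 11 calls in KO cells and 19 calls in WT cells fell on genes above background in no group, and such small shifts at the floor are not described further.

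The median difference over the 73 genes was -0.15 in KO and -0.15 in WT cells on the log2 scale, against 0.02 in KO and -0.02 in WT over all genes. It stayed below 0 in both genotypes when each array was centred on its median (-0.09 in KO, -0.08 in WT) and under quantile normalization (-0.02 in each). The 73 genes were kept for being above background in a group, more often a native one, while all genes were not filtered. A median below 0 can in part come from that choice, so no conclusion is drawn from it. Over all 296 genes the median was -0.03 in KO and -0.04 in WT cells, and it turned to 0.03 in both under centring and to 0.01 in both under quantile normalization. The 16 called falls in KO cells ran from -2.69 to -0.34 with a median of -0.90, and the 17 in WT cells from -2.82 to -0.32 with a median of -0.95. Of the 16 in KO cells 13 lay under background on activated KO array 3, 4 on array 1 and 3 on array 2, and of the 17 in WT cells 9 lay under it on activated WT array 2 and 4 each on arrays 1 and 3, so the sizes of these differences rest in part on values that were not above background. All 18 genes called in KO cells were also called in WT cells, in the same direction, which is 100% of the KO calls and 94.7% of the WT calls. Over all 296 genes 28 calls were shared, 96.6% of the KO calls and 73.7% of the WT calls. The share over all genes on the array is not given here, so the overlap shows nothing particular to microRNA genes. KO and WT arrays of the same number and state also share an experiment number. The KO difference minus the WT difference of these 18 lay between -0.18 for Mir677 and 0.34 for Mir568, and it was under 0.25 in size for 16. These genes were chosen for passing in both genotypes, which favours small gaps.

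**Figure D2:**
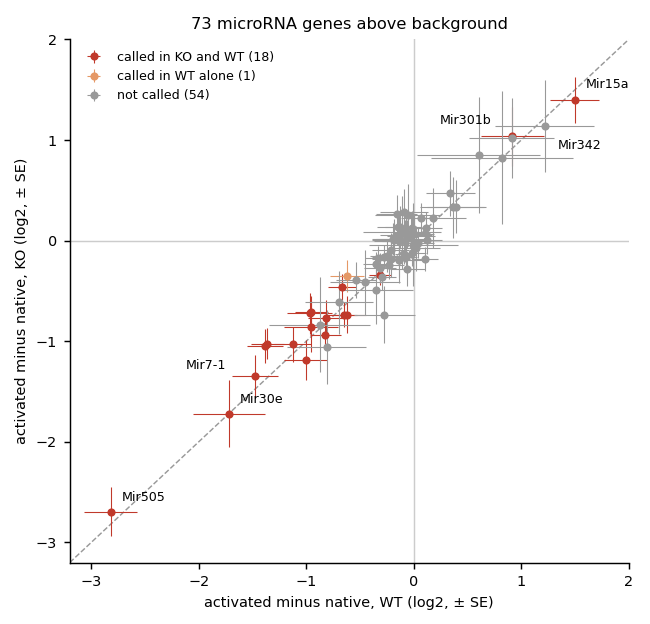
Activated minus native difference in KO cells (vertical) against the same in WT cells (horizontal), log2 with standard errors, for the 73 microRNA genes above background in a group. The 18 genes called in both genotypes lie along the line of equal differences, 16 of them in the lower left.

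Mir505 fell furthest. It lies on the X chromosome, and its log2 values were 8.27, 8.15 and 7.67 in activated KO cells, against 10.67, 10.80 and 10.70 in native KO cells. Activated WT cells had 8.22, 8.21 and 7.40, against 10.92, 11.03 and 10.34 in native WT cells. Every activated array was below every native array, and all 12 were above background. Mir505 fell by 2.69 ± 0.24 in KO cells (SE, n = 3 arrays a group, adjusted p = 1.48e-05) and fell by 2.82 ± 0.24 in WT cells (adjusted p = 9.47e-06). On activated KO array 1 and native KO array 1, where Xist was low, Mir505 was at 8.27, the highest of the activated arrays, and at 10.67, within the range of the other native arrays.

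Mir30e, a member of the miR-30 family inside an intron-bearing host gene, Nfyc, came next. It had 6.59, 6.34 and 5.95 in activated KO cells, against 7.82, 8.58 and 7.64 in native KO cells. In activated WT cells it had 6.82, 6.43 and 5.92, against 7.90, 8.77 and 7.65 in native WT cells. The native arrays numbered 2 were the highest of both genotypes, and the activated arrays numbered 3, and activated WT array 2, lay under their background. Mir30e fell by 1.72 ± 0.33 in KO cells (adjusted p = 0.00339) and by 1.72 in WT cells (adjusted p = 0.00333). Its cluster neighbour Mir30c-1 was above background in no group.

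Mir7-1, which encodes miR-7a inside Hnrnpk, was among the brightest microRNA genes. Its log2 values were 9.24, 8.58 and 8.35 in activated KO cells, against 10.08, 10.06 and 10.07 in native KO cells. Activated WT cells had 8.88, 8.54 and 8.44, against 10.03, 10.38 and 9.88 in native WT cells. The groups did not overlap in either genotype, and the native KO arrays nearly coincided. Mir7-1 fell by 1.35 ± 0.21 in KO cells (2.55-fold, adjusted p = 0.000909) and by 1.48 ± 0.21 in WT cells (2.79-fold, adjusted p = 0.000448). Mir7-2, at another locus, had 6.26, 6.20 and 6.57 in activated KO cells, against 6.27, 6.62 and 6.51 in native KO cells, and these values overlapped.

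Several other microRNA genes inside or across protein genes also fell. Mir677, within Atp5b (chr10:128085286-128085363), had 6.66, 6.31 and 6.23 in activated KO cells, against 7.21, 7.79 and 7.77 in native KO cells. WT cells had 6.77, 6.20 and 6.72 when activated, against 7.42, 7.72 and 7.57 when native. The groups did not overlap, and Mir677 fell by 1.19 ± 0.20 in KO cells (adjusted p = 0.00131) and by 1.01 in WT cells (adjusted p = 0.00358). Mir568, on the strand opposite to Tigit, an inhibitory receptor gene of T cells, had 6.23, 6.77 and 6.44 in activated KO cells, against 7.38, 7.68 and 7.45 in native KO cells. Activated WT cells had 6.18, 6.57 and 6.31, against 7.67, 7.83 and 7.65 in native WT cells. Mir568 fell by 1.03 ± 0.15 in KO cells (adjusted p = 0.000664) and by 1.36 in WT cells (adjusted p = 7.61e-05), without overlap. On activated KO arrays 1 and 3 and activated WT arrays 1 and 2 Mir568 lay under the array's background, so the exact size of these differences, and their gap between genotypes, is not well measured.

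Mir423, within Nsrp1, had 6.79, 6.81 and 6.31 in activated KO cells, against 7.66, 7.54 and 7.54 in native KO cells. WT cells had 6.97, 6.72 and 6.81 when activated, against 7.47, 7.70 and 7.79 when native. It fell by 0.94 ± 0.15 in KO cells (adjusted p = 0.000796) and by 0.82 in WT cells, with no overlap in either. Mir6516, in the small nucleolar host transcript Snhg20, fell by 0.74 ± 0.12 in KO (adjusted p = 0.00136) and by 0.65 in WT cells (adjusted p = 0.00296).

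Mir687 and Mir128-1 were above background in native cells and at background on all activated arrays, so their falls are lower bounds. Here and below, an adjusted p beside a bound belongs to the limma test of the measured difference, and the bound itself was not tested. Mir687, within the span of Rb1, was at 5.77, 6.05 and 5.52 in activated KO cells, against 6.93, 6.74 and 6.82 in native KO cells. It was at least 0.27 lower in activated KO cells (adjusted p = 0.0011). In activated WT cells Mir687 was at 5.68, 5.94 and 5.73, against 7.45, 7.21 and 6.84 in native WT cells, which is at least 0.78 lower (adjusted p = 0.000144). Mir128-1, within R3hdm1, was at 5.60, 5.89 and 5.77 in activated KO cells, against 6.94, 6.94 and 6.48 in native KO cells, at least 0.22 lower (adjusted p = 0.00143). In activated WT cells it was at 5.76, 5.99 and 5.88, against 7.21, 7.16 and 6.64 in native WT cells, at least 0.62 lower (adjusted p = 0.000762).

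The let-7 family, known for restraining proliferation and kept low in many dividing stem cells, was represented by 9 genes with the seed in the sequences used and by Mirlet7a-2, and 3 of the 9 were above background in a group. Mir98, within Huwe1 on the X chromosome, had 6.74, 6.83 and 6.41 in activated KO cells, against 7.35, 7.42 and 7.52 in native KO cells. WT cells had 7.06, 6.64 and 6.69 when activated, against 7.69, 7.88 and 7.26 when native. Mir98 fell by 0.77 ± 0.18 in KO cells (adjusted p = 0.00885) and by 0.81 in WT cells (adjusted p = 0.0062). Mirlet7d had 7.31, 6.95 and 7.50 in activated KO cells, against 7.77, 8.09 and 8.01 in native KO cells, and fell by 0.71 ± 0.15 (adjusted p = 0.00641). In activated WT cells Mirlet7d had 7.20, 7.08 and 7.01, against 7.86, 8.09 and 8.19 in native WT cells, and fell by 0.95 (adjusted p = 0.000972). The KO call of Mirlet7d was lost under quantile normalization (adjusted p = 0.0923). Mirlet7a-1, from the same cluster on chromosome 13, was close to the floor: it was called in KO cells (adjusted p = 0.023) with no bound above 0, and in WT cells it was at least 0.05 lower when activated (adjusted p = 0.00283). Its KO call was lost without activated KO array 1 (adjusted p = 0.0866) and native KO array 3 (0.0972), and in a fit of the 6 KO arrays alone (0.0929). The remaining let-7 genes, Mirlet7a-2 among them, were above background in no group.

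Of 6 genes with the miR-15 and miR-16 seed, whose microRNAs target Bcl2 and cell cycle genes, 4 were above background in a group, of which 1 rose and 1 fell. Mir15a, in the long non-coding gene Dleu2 that is lost in human leukaemias, had 8.65, 8.86 and 7.77 in activated KO cells, against 7.02, 7.09 and 6.99 in native KO cells. Activated WT cells had 8.68, 8.49 and 8.50, against 7.33, 6.98 and 6.87 in native WT cells. Every activated array was above every native array of the same genotype. Mir15a rose by 1.39 ± 0.23 in KO cells (2.63-fold, adjusted p = 0.00124) and by 1.50 in WT cells (2.82-fold, adjusted p = 0.000739). Its neighbour Mir16-1, within 1 kb on the same strand, was not above background in any group. Mir16-2, near Mir15b within the span of Smc4 on chromosome 3, had 6.83, 7.29 and 6.57 in activated KO cells, against 7.61, 7.74 and 7.54 in native KO cells. In WT cells it had 7.09, 7.15 and 6.83 when activated, against 7.76, 7.80 and 7.39 when native. Mir16-2 fell by 0.74 ± 0.18 in KO cells (adjusted p = 0.0129) and by 0.63 in WT cells (adjusted p = 0.0286).

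These smaller calls depend on single arrays and on the scaling. For Mir16-2 the KO call was lost without native KO array 2 (adjusted p = 0.0555), and the WT call was lost without array 1 of native (0.104) or activated WT cells (0.059), array 2 of native WT cells (0.115) or array 3 of activated WT cells (0.117), under centring (0.0582) and under quantile normalization (0.0812). Mir15b had 7.56, 8.11 and 6.33 in activated KO cells, against 8.50, 8.29 and 8.38 in native KO cells, and 7.84, 7.63 and 7.41 in activated WT cells, against 8.97, 8.20 and 8.14 in native WT cells. Its groups did not overlap, yet it did not pass the test: the difference was -1.06 ± 0.37 in KO cells (adjusted p = 0.064) and -0.81 in WT cells (adjusted p = 0.159). In KO cells it passed without activated KO array 2 (adjusted p = 0.00859), with the array number as a block (0.0348) and with genes at background left out (0.0366), and in WT cells without activated KO array 3 (0.0145) and in a fit of the 6 WT arrays alone (0.0359). Mir195a, of the same seed and named after its values were seen, was above background in all 4 groups with overlapping values of 6.67 to 7.47 in activated KO cells, against 6.71 to 7.20 in native KO cells.

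Mir155, the microRNA gene best known from T cell activation, was lower after these 96 h. It had 7.34, 6.89 and 7.17 in activated KO cells, against 7.67, 8.30 and 7.60 in native KO cells, and 7.04, 6.74 and 6.95 in activated WT cells, against 7.87, 8.18 and 7.58 in native WT cells. The groups did not overlap in either genotype, and activated KO array 3 lay under its background. Mir155 fell by 0.72 ± 0.21 in KO cells (adjusted p = 0.0279) and fell by 0.97 ± 0.21 in WT cells (adjusted p = 0.00592), and the WT call was kept in every alternative run. The KO call was lost without native KO array 2 (adjusted p = 0.117), without activated KO array 2 (0.0836), in a fit of the 6 KO arrays alone (0.0751) and under quantile normalization (0.0802).

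Mir19b-1, of the miR-17 cluster on chromosome 14 that promotes lymphocyte expansion, had 6.84, 6.40 and 6.56 in activated KO cells, against 7.26, 7.51 and 7.61 in native KO cells. WT cells had 7.34, 6.25 and 6.49 when activated, against 7.46, 7.99 and 7.49 when native. It fell by 0.86 ± 0.25 in KO cells (adjusted p = 0.0321) and by 0.95 in WT cells (adjusted p = 0.019). The KO call was lost without native KO arrays 1, 2 or 3 (adjusted p = 0.0513, 0.0957 and 0.111) and without activated KO arrays 2 or 3 (0.0848 and 0.0537), under centring (0.0588) and under quantile normalization (0.0637). In WT cells the call was lost without array 2 of native (0.0892) or activated cells (0.0666) or array 3 of activated cells (0.077). The other 4 measured members of the cluster did not pass in either genotype. Mir19a had 6.86, 6.40 and 6.01 in activated KO cells, against 6.997, 7.20 and 7.29 in native KO cells, and Mir18 had 7.36, 6.68 and 6.23, against 7.22, 7.30 and 7.23. In activated WT cells Mir19a ran from 6.24 to 7.49 and Mir18 from 6.11 to 7.65, with array 2 the lowest for both. Without activated WT array 2 in the fit, Mir19a passed in KO cells (adjusted p = 0.0238). Mir17 and Mir20a were above background in no group, as was each of the 6 genes found with the seed AAAGUGC.

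Among genes above background, the only called rise beside Mir15a was that of Mir301b, within 2610318N02Rik on chromosome 16. It had 7.26, 7.15 and 8.21 in activated KO cells, against 6.37, 6.87 and 6.28 in native KO cells, and 7.36, 7.65 and 6.95 in activated WT cells, against 6.01, 6.65 and 6.54 in native WT cells. Activated arrays were the higher ones throughout, and Mir301b rose by 1.04 ± 0.29 in KO cells (adjusted p = 0.0256) and by 0.92 in WT cells (adjusted p = 0.0445). The KO call was lost without native KO array 1 (adjusted p = 0.0878), native KO array 3 (0.0986) or activated KO array 3 (0.0557), and in a fit of the 6 KO arrays alone (0.0642). The WT call did not survive leaving out any of native WT arrays 1, 2 or 3 (0.175, 0.0623 and 0.0781), activated WT arrays 1 or 2 (0.111 and 0.139) or native KO arrays 1 or 3 (0.0606 and 0.0593), or fitting all rows of the table (0.0509). Its cluster neighbour Mir130b was above background in no group.

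Mir186 and Mir668 were also called, and are named here after their values were seen. Mir186, within Zranb2, had 7.03, 6.87 and 7.06 in activated KO cells, against 7.47, 7.61 and 6.93 in native KO cells, a difference of -0.35 ± 0.16 that did not pass (adjusted p = 0.157). In activated WT cells Mir186 had 6.93, 6.85 and 6.78, against 7.52, 7.54 and 7.35 in native WT cells, and fell by 0.62 (adjusted p = 0.0154). Among genes above background it was the one called in a single genotype, and the interaction was not called. Leaving out native WT array 1 (adjusted p = 0.0579), native WT array 2 (0.0615) or activated WT array 3 (0.059) ended its WT call, and it passed in KO cells without native KO array 3 (0.0103). Mir668, on chromosome 12, showed the smallest called change, by -0.34 ± 0.10 in KO cells (adjusted p = 0.0332) and -0.32 in WT cells (adjusted p = 0.0447). That call was lost in 12 of 20 alternatives in KO cells and in 13 of 20 in WT cells. Among single arrays left out, it was lost in KO cells without activated KO arrays 1 and 2, native KO arrays 2 and 3 and each native WT array (adjusted p = 0.0522 to 0.114). In WT cells it was lost without activated KO array 1, native KO arrays 2 and 3 and each WT array of either state (0.0518 to 0.154).

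**Figure D3:**
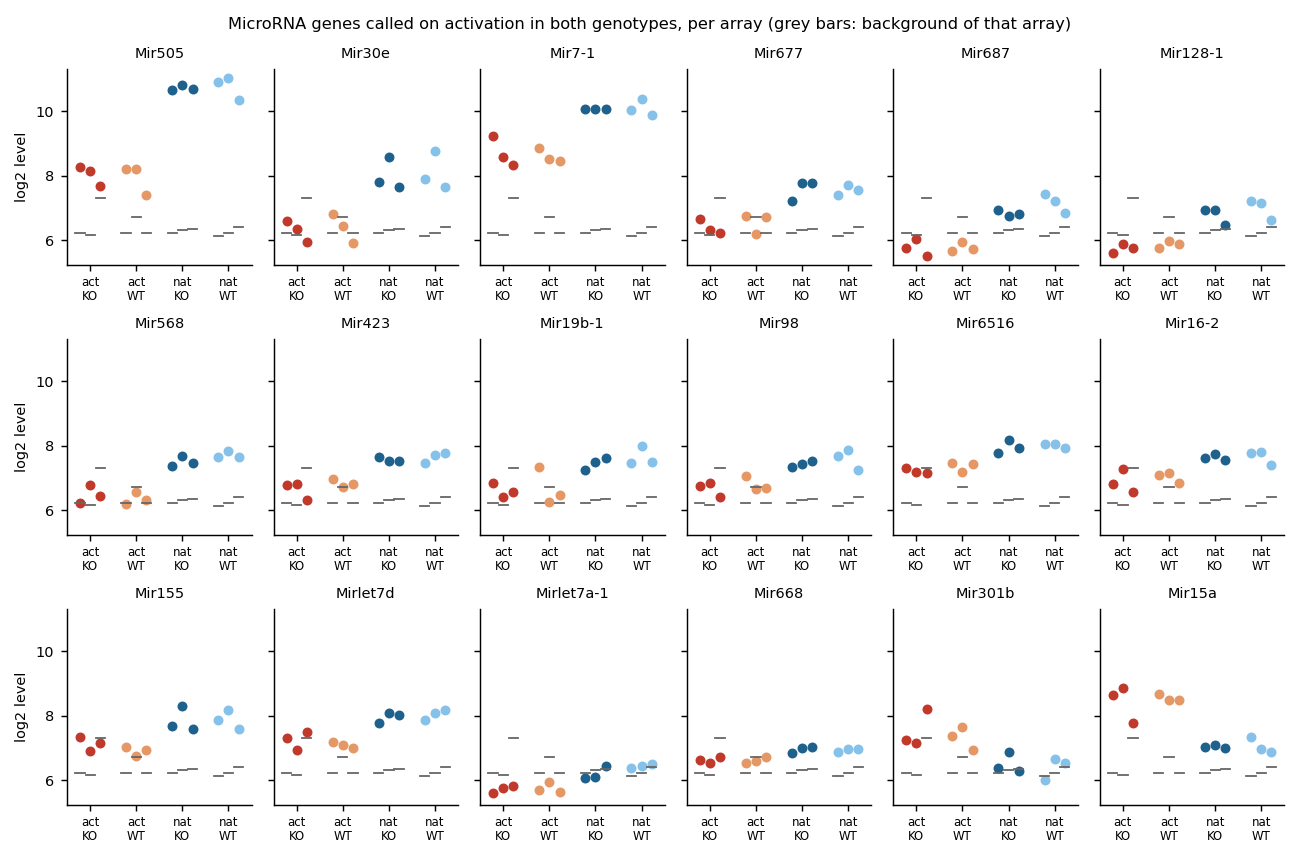
Log2 level on each of the 12 arrays for the 18 microRNA genes called on activation in both genotypes; points run over arrays 1 to 3 of activated KO, activated WT, native KO and native WT cells, and a grey bar is that array's background. Mir15a and Mir301b are higher in activated cells and the other 16 lower, several of them down to the background bar.

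Mir342 and Mir7b were higher in activated cells without passing the test. Mir342, within Evl and on the list of genes known from resting lymphocytes, had 7.23, 8.79 and 7.05 in activated KO cells, against 7.04, 6.10 and 6.51 in native KO cells. In WT cells it had 7.39, 8.61 and 7.65 when activated, against 7.19, 6.27 and 6.52 when native. The groups did not overlap, arrays numbered 2 were the highest of the activated and the lowest of the native ones, and the difference was 1.14 ± 0.46 in KO (adjusted p = 0.112) and 1.22 ± 0.46 in WT cells (adjusted p = 0.0874). Mir342 passed in KO cells without activated KO array 3 (adjusted p = 0.045) and in WT cells without activated KO array 2 (0.022), under quantile normalization (0.0494), with genes at background left out (0.0492) and in a fit of the 6 WT arrays alone (0.0364). Mir7b, named after its values were seen, was at background on all native arrays and at 6.67, 6.53 and 8.28 in activated KO and 6.75, 7.51 and 6.45 in activated WT cells. Its difference of at least 0.87 in KO (adjusted p = 0.0983) and at least 0.65 in WT cells (adjusted p = 0.141) did not pass. It passed in KO cells without activated KO array 2 (0.0353) and in WT cells without activated KO array 3 (0.00825) and in a fit of the 6 WT arrays alone (0.031).

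Genes that hold a called microRNA gene were called about as often as genes in general. Hosts were found as genes on the array whose span encloses the microRNA gene. Mir17hg, listed as a host and above background in a group, was not found this way and is not counted, so Mir19b-1 has no host here. Of the 10 called microRNA genes in KO cells with a host so found, 3 hosts were called in the same direction, 0 in the opposite one and 7 not at all. In WT cells the counts were 3, 1 and 7 of 11. Among all genes above background 36.4% passed in KO and 37.4% in WT cells, so these counts show nothing particular to hosts. Dleu2 had 8.12, 8.12 and 7.71 in activated KO cells, against 8.11, 7.58 and 7.94 in native KO cells. Its values overlapped between the states in KO cells, and it differed by 0.11 ± 0.15 in KO cells (adjusted p = 0.73) and by 0.10 in WT cells (adjusted p = 0.765), where Mir15a rose by 1.39 in KO and 1.50 in WT cells. Hnrnpk, an abundant RNA-binding protein gene, had 13.09, 12.91 and 12.87 in activated KO cells, against 12.972, 12.953 and 12.995 in native KO cells. It differed by -0.02 ± 0.12 in KO cells (adjusted p = 0.952) and by -0.05 in WT cells (adjusted p = 0.863), where Mir7-1 fell by 1.35 in KO and fell by 1.48 in WT cells; the sign of so small a difference turned under centring, to 0.05 in KO and 0.02 in WT cells.

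Nfyc differed by -0.53 ± 0.18 in KO cells (adjusted p = 0.0625) and -0.52 ± 0.18 in WT cells (adjusted p = 0.064), less than Mir30e in both. It passed with the title number as a block (0.0298 in KO cells, 0.0306 in WT cells), under quantile normalization (0.0407 and 0.0372), with genes at background left out (0.0471 in KO, 0.0483 in WT) and without activated KO array 1 (0.0164 in KO, 0.0339 in WT) or activated WT array 1 (0.0323 in KO, 0.0156 in WT), and in WT cells without activated KO array 3 (0.0293). Atp5b, a subunit of ATP synthase, differed by 0.29 ± 0.11 in KO cells (adjusted p = 0.0957) and rose by 0.37 in WT cells (adjusted p = 0.0383), where Mir677 fell. That WT call was lost without any single native WT array, native KO arrays 2 or 3, or activated WT arrays 1 or 3 (adjusted p = 0.0544 to 0.117), and Atp5b passed in KO cells without activated KO array 2 (0.0174) and under centring (0.0458). Hosts that moved with their microRNA genes were Huwe1, a ubiquitin ligase gene, Smc4, a condensin subunit gene, and 2610318N02Rik. Huwe1 fell by 0.63 ± 0.11 in KO cells (adjusted p = 0.00193) and by 0.71 in WT cells, close to the differences of Mir98. Smc4 fell by 0.51 ± 0.11 in KO (adjusted p = 0.00718) and by 0.57 in WT cells (adjusted p = 0.00395).

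2610318N02Rik had 10.48, 10.01 and 9.65 in activated KO cells, against 7.44, 7.68 and 7.85 in native KO cells, and rose by 2.39 ± 0.23 (adjusted p = 2.34e-05). In WT cells it rose by 2.71 (adjusted p = 7.87e-06), so the host rose by more than Mir301b did in both genotypes. Mcm7, a subunit of the replicative helicase, showed the opposite case of a host that rose without its microRNA gene. It rose by 1.32 ± 0.12 in KO cells (adjusted p = 1.43e-05) and by 1.47 in WT cells (adjusted p = 5.52e-06). Mir25 in its introns had 6.66, 6.48 and 6.45 in activated KO cells, against 6.14, 6.65 and 6.41 in native KO cells, a difference of 0.13 ± 0.15 (adjusted p = 0.671), and Mir93 and Mir106b of the same cluster were above background in no group.

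**Figure D4:**
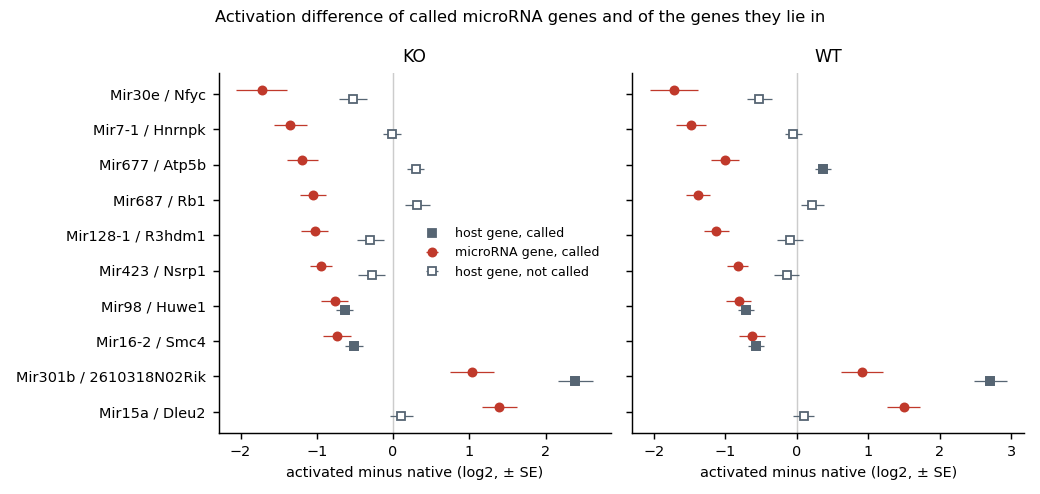
Activated minus native difference (log2, with standard errors) of called microRNA genes and of the genes they lie in, for KO (left) and WT cells (right); filled squares are hosts that passed the test and open squares hosts that did not. The squares of Hnrnpk and Dleu2 sit near 0 while Mir7-1 and Mir15a lie beyond 1.3 in size in both panels.

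Of 21 measured microRNA genes on a list known from T cell activation as mature microRNAs, 9 were above background in a group. Among all microRNA genes 73 of 296 (24.7%) were, and among all genes 48.2%. On the list 2 genes, Mir155 and Mir19b-1, passed the test in each genotype, both lower in activated cells. That is 9.52% of the list, against 9.8% in KO and 12.8% in WT cells of all microRNA genes and 20.1% in KO and 20.6% in WT cells of all genes. The list's median difference was -0.04 in KO and -0.13 in WT cells, against 0.02 in KO and -0.02 in WT cells over all genes. Mir210, known from the response to low oxygen, had 6.65, 6.82 and 7.39 in activated KO cells, against 6.71, 7.01 and 6.93 in native KO cells, with overlapping values. Of 29 measured genes known from resting lymphocytes, 12 were above background in a group, against the 24.7% of all microRNA genes and 48.2% of all genes given above. In each genotype 6 of them (20.7%) passed the test: Mir15a higher, and Mir30e, Mir98, Mir16-2, Mirlet7d and Mirlet7a-1 lower in activated cells. Over all genes the share was 20.1% in KO and 20.6% in WT cells, and over all microRNA genes 9.8% in KO and 12.8% in WT cells. The list thus lay near the share of all genes and above that of all microRNA genes, a difference that was not tested. The medians of this list were -0.07 in KO and -0.04 in WT cells.

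Mir142, made throughout the blood lineages, and Mir150, a marker of mature lymphocytes, are both on that list and did not pass. Mir142 was the second brightest microRNA gene, with 9.43, 10.18 and 8.23 in activated KO cells, against 8.96, 9.74 and 9.26 in native KO cells, and 9.26, 9.78 and 9.56 in activated WT cells, against 9.15, 10.07 and 9.39 in native WT cells. The groups overlapped, the arrays numbered 2 were the highest of each group, and the KO difference was -0.04 ± 0.41. Without activated KO array 3 it was 0.48 (adjusted p = 0.316). Mir150, which restrains Myb, had 6.77, 6.53 and 7.35 in activated KO cells, against 6.48, 6.51 and 6.25 in native KO cells, and 6.69, 7.24 and 6.41 in activated WT cells, against 6.32, 6.53 and 6.47 in native WT cells, differences of 0.47 in KO and 0.34 in WT cells that did not pass. Of 19 measured genes known from other tissues (muscle, brain, liver, epithelium, red cells), Mir9-1 was the only one above background in a group, with 5.81, 6.31 and 6.64 in native KO cells and, in the group where it counted as above background, 6.33, 6.29 and 6.42 in native WT cells.

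The cluster of Mir23a, Mir27a and Mir24-2 on chromosome 8, known in T cells from helper cell differentiation, differed more between arrays of the native groups than between genotypes. Mir27a had 6.26, 8.26 and 7.39 on native KO arrays 1 to 3 and 6.53, 8.16 and 7.25 on native WT arrays 1 to 3. Mir23a had 6.75, 8.14 and 7.73 in native KO and 7.21, 8.16 and 7.46 in native WT cells, and Mir24-2 had 5.80, 7.10 and 6.67 in native KO and 6.21, 7.31 and 6.56 in native WT cells. Arrays numbered 2 were the highest and arrays numbered 1 the lowest for all 3 genes in both genotypes. The means over the native KO and WT arrays of a number were 6.39, 8.21 and 7.32 for Mir27a, while the KO minus WT gap within a number was at most 0.27 in size. Activated KO cells had 6.63, 6.65 and 6.12 for Mir27a, so the difference of -0.83 in KO cells, and that of -0.88 in WT cells, did not pass. Mir24-2 passed in KO cells without native KO array 1 (adjusted p = 0.0367). KO and WT arrays of the same number and state are listed under the same experiment number. The labels do not say what such arrays share (an isolation, a day, a pool of mice).

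**Figure D5:**
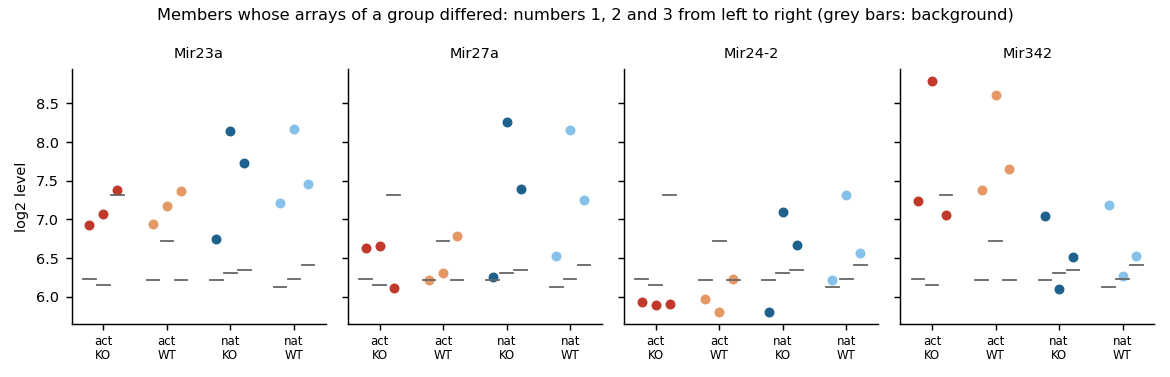
Log2 level of Mir23a, Mir27a, Mir24-2 and Mir342 on arrays 1, 2 and 3 (left to right) of activated KO, activated WT, native KO and native WT cells; grey bars are the arrays' backgrounds. The 3 clustered genes peak on array 2 of both native groups, while Mir342 is lowest there and highest on array 2 of both activated groups.

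The share above background differed with position, a difference that was not tested. Of 131 genes inside another gene on the same strand 24 (18.3%) were above background in a group, and of 140 other genes with a known strand 40 (28.6%). Some of these 140 lie inside genes whose strand was not given, such as Mir15b in Smc4. In genomic clusters (microRNA genes on 1 strand within 10 kb of the next) 27 of 136 genes were above background (19.9%), against 46 of 160 outside clusters (28.7%). The 160 include 25 genes whose own strand was not given and which could not be assigned to a cluster. Of these 25 genes 9 (36%) were above background. The largest cluster, 30 genes at 109709060 to 109743496 on chromosome 12, which is imprinted and expressed mainly in brain and embryo, had 5 above background, among them Mir667 in all 4 groups. Of 39 genes on the X chromosome 3 were above background (7.7%). The median GC content of the hairpin was 44.4% for genes above background and called on activation (n = 17), 57.2% for genes above background and not called (n = 42), and 46.1% for genes above background in no group (n = 199). GC content was available for these 258 genes only. Mir505 and Mir15a, both called on activation, were not among them.

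Among the brightest rows, Mir692-1, Mir680-2, Mir297b and Mir669b belong to microRNA families with near-identical copies, so such a row may also read the copies. By mean over 12 arrays the order was Mir692-1 (9.57), Mir142 (9.42), Mir7-1 (9.38), Mir505 (9.37), Mir680-2 (8.71), Mir297b (8.29), Mir669b (8.22), Mir598 (8.18), Mir15b (7.95) and Mir346 (7.89). Mir692-1 had 9.51, 9.33 and 10.11 in activated KO cells, against 9.70, 9.95 and 9.29 in native KO cells. Mir680-2 had 8.76, 8.31 and 10.79 in activated KO and 8.56, 9.75 and 8.25 in activated WT cells, against 8.80, 8.62 and 7.88 in native KO and 7.95, 8.05 and 8.76 in native WT cells. Of these 10 genes Mir7-1 and Mir505 passed on activation. On activated KO array 3 the 55 genes above background and not called in KO lay at a median 0.53 above the mean of arrays 1 and 2 of that group (45 higher), the 18 called ones at -0.17, all genes at 0.05 and the olfactory receptor genes at 0.79. Without this array 20 genes above background were called in KO cells, 16 of them among the 18.

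Of the genes that make and use microRNAs, 24 of 28 were above background, and 10 passed in each genotype. In KO cells 3 rose and 7 fell, with a median difference of -0.26, and in WT cells 2 rose and 8 fell, with a median of -0.18. The share called, 35.7% in each genotype, stands against 20.1% in KO and 20.6% in WT cells over all genes and 36.4% in KO and 37.4% in WT cells over genes above background, so the list was called at about the ordinary rate of measurable genes. Ddx5, an RNA helicase that assists Drosha, had 11.65, 11.63 and 11.11 in activated KO cells, against 12.79, 12.80 and 12.73 in native KO cells. It fell by 1.31 ± 0.15 in KO cells (adjusted p = 7.91e-05) and by 1.25 in WT cells (adjusted p = 0.0001). The GW182 genes fell together: Tnrc6c by 1.52 in KO and 1.43 in WT cells, Tnrc6b by 1.23 and 1.38, and Tnrc6a by 0.80 and 0.73. Ago3 (by 0.92 in KO, 0.99 in WT), the uridylyl transferase gene Tut7 (0.90 and 0.79) and the nuclear exonuclease gene Xrn2 (0.78 and 0.85) also fell. Ran rose by 0.99 ± 0.16 in KO (adjusted p = 0.00111) and by 1.00 in WT cells (adjusted p = 0.00101), and Khsrp, which aids processing of let-7 in human cells, by 0.56 in KO and 0.62 in WT cells. Prkra, a Dicer partner gene above background in no group, was the third called rise in KO cells. The core enzymes did not pass: the differences in KO and WT cells were 0.03 and 0.04 for Drosha, 0.14 and 0.10 for Dgcr8, 0.25 and 0.17 for Xpo5, -0.39 and -0.40 for Dicer1, and -0.26 and -0.24 for Ago2.

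Of 14 genes known as targets of T cell microRNAs, 5 passed in each genotype, 1 higher and 4 lower in KO, and 2 higher and 3 lower in WT cells. That share of 35.7% is close to the 36.4% in KO and 37.4% in WT cells of all genes above background. Foxo1, a transcription factor of resting T cells, fell by 2.01 ± 0.47 in KO cells (adjusted p = 0.00988) and by 1.74 in WT cells (adjusted p = 0.0205). Its WT call was lost without any single WT array except activated WT array 2 (adjusted p = 0.0527 to 0.0867). Pdcd4, a translation inhibitor and miR-21 target, fell by 0.90 in KO (adjusted p = 0.00695) and by 1.20 in WT cells (adjusted p = 0.00115). Myb, the miR-150 target, fell by 1.06 ± 0.19 in KO cells (adjusted p = 0.00214) and differed by -0.56 in WT cells (adjusted p = 0.0571), where it passed without activated KO array 3 (0.0245), with genes at background left out (0.0419) and in a fit of the 6 WT arrays alone (0.041). Traf6, a signalling adaptor and miR-146a target, fell by 0.69 ± 0.20 in KO (adjusted p = 0.0321) and by 0.73 in WT cells (adjusted p = 0.0248). Both calls of Traf6 were lost under centring (0.0749 in KO, 0.0623 in WT). The KO call was also lost without any single native KO array and in a fit of the 6 KO arrays alone (0.0757 to 0.122), and the WT call without any single native WT array or activated WT arrays 2 or 3 (0.0527 to 0.095). Socs1, a cytokine signalling inhibitor and miR-155 target, rose by 0.59 ± 0.15 in KO (adjusted p = 0.0175) and by 0.68 in WT cells (adjusted p = 0.008). The KO call of Socs1 was lost without native KO array 1 (0.0586), activated KO array 1 (0.0635) or native KO array 2 (0.0555). The second rise in WT cells was that of Eomes, a transcription factor of effector CD8 T cells, by 0.52 ± 0.17 (adjusted p = 0.049), against a KO difference of 0.45 that did not pass (0.0898). The WT call of Eomes was lost in 13 of 20 alternatives (adjusted p = 0.0534 to 0.202), among them each native WT and each native KO array left out.

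Loss of Aire was not accompanied by a called change of any microRNA gene. Between KO and WT cells, limma called 0 of 296 genes in the native state and 0 in the activated state, against 0% of all 19938 genes in each, and 0 for the interaction of genotype and state. At an unadjusted p under 0.05 the counts were 1 microRNA gene in native cells, 3 in activated cells and 0 for the interaction, against 131, 87 and 86 of all genes. Counts stayed at 0 with the array number as a block. Over the 73 genes above background the KO minus WT difference ran from -0.34 (Mir687) to 0.64 (Mir680-1) in native cells and from -0.52 (Mir19a) to 0.64 (Mir680-1) in activated cells, with a median standard error of 0.19. Of the 296 differences in native cells 221 (74.7%) were negative, against 59.9% over all genes. Their median was -0.05, against -0.02 over all genes. It was -0.07 under centring, against -0.05 over all genes, and -0.04 under quantile normalization, against -0.01. All genes thus shifted the same way, by less.

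The values nearest to a difference were small. Mir688 had 6.61, 6.45 and 6.71 in native KO cells, against 6.86, 6.80 and 6.93 in native WT cells, without overlap, a difference of -0.27 ± 0.12 that did not pass. Mir194-2 had 6.68, 6.65 and 6.65 in native KO cells, against 6.33, 6.55 and 6.44 in native WT cells, a difference of 0.22 ± 0.14. In activated cells Mir466 had 6.64, 6.64 and 6.45 in KO, against 6.75, 6.94 and 6.89 in WT, a difference of -0.28 ± 0.12. All 3 comparisons had groups that did not overlap and an adjusted p of 0.9999. These genes were named for small unadjusted p, a choice that favours groups without overlap. The share of all genes without overlap is not given here, so the separation shows nothing particular to them. The largest differences in size came with wide errors, such as 0.64 ± 0.66 for Mir680-1 in native cells, where KO arrays had 7.63, 7.62 and 6.43, against 6.12, 6.50 and 7.16 on WT arrays. The interaction was largest for Mir383 (0.42 ± 0.27) and Mir19a (-0.46), and neither passed. Among the genes that make and use microRNAs 0 of 28 passed between KO and WT cells in the native or the activated state, and 0 had an unadjusted p under 0.05 in either.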

How the data were processed

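The deposited table holds log2 values of 35556 array rows on 12 arrays. Per the submitters' processing notes, the authors made these log2 values by RMA in Partek, whose versions the sources used here do not give. RMA compresses differences near background. Per the labels' protocols, RNA was taken up in Trizol, cleaned on RNeasy columns and labelled by a whole-transcript assay. Rows with a single platform symbol (21789) were reduced to the brightest row per gene, and rows with several symbols (1621, of which 61 hold a microRNA) or none (12146) were left out. Group means were fitted over all 12 arrays with limma 3.58.1 in R 4.3.3 (lmFit, eBayes), with Benjamini-Hochberg adjustment over 19938 genes. The fit was tested on simulated data. Where a group was at background on all arrays, a difference was computed from the array's background, or from a higher own value, as a bound. Array precision is limited by 3 arrays a group.

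Members and lists were chosen with earlier results of these data known. Named were, among genes above background: called genes up to 12 a direction, the 3 smallest unadjusted p per direction where fewer than 3 passed, the 10 brightest, members of the T cell and other-tissue lists, and their clusters. Of the lists of machinery, host and target genes, up to 6 called genes were named for each comparison, and a host beside its microRNA gene. Genes named beyond this rule are the core microRNA enzymes and those marked as such. Between native KO and WT arrays of the same number, the correlation of deviations was 0.58, 0.396 and 0.157 for numbers 1 to 3. Between activated KO and WT arrays it was 0.694, -0.017 and -0.013. It was thus positive for every native number, lowest for number 3, and among activated arrays for number 1 only. Alternatives were another scaling, block, filter or fit, all rows, and each array left out.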

Additional observations from a re-analysis of the deposited data

How the results depend on the processing

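Of 19 microRNA genes above background and called on activation, 11 kept their calls in all 20 alternatives of each comparison, and 8 lost a call in at least 1. The number called in KO cells ran from 19 (without native KO array 2) to 34 when an array was left out, and in WT cells from 19 (without native WT array 2) to 50, with 20 without native WT array 1 and 24 without activated WT array 1. With the array number as a replicate block, 31 genes were called in KO and 38 in WT cells, 0 between genotypes, and Mir15b and Mir20a passed in KO cells (adjusted p = 0.0348 and 0.0428), and the block changed no other call among the single microRNA genes refitted under each alternative. Other fits called 21 to 29 in KO and 26 to 47 in WT cells. The number above background moved with its definition. With 2 of 3 arrays sufficient it was 66 in activated KO, 70 in activated WT, 76 in native KO and 93 in native WT cells. At the 99th percentile it was 29 in activated WT and 43 in native WT cells, and 48 in at least 1 group. Without activated KO array 3 it was 66 in activated KO cells, where only 2 arrays then had to be above background. Signs turned for small differences that had not passed. With an array left out, Dleu2 in KO cells ran from -0.0412 (without native KO array 2) to 0.245, Hnrnpk from -0.0853 to 0.0265 in KO (turned to 0.0063 without activated KO array 2) and from -0.165 to 0.0389 in WT cells, and Mir142 from -0.49 to 0.484 in KO and from -0.198 to 0.263 in WT cells. In WT cells Mir18 ran from -0.686 to 0.0816 and Mir19a from -0.548 to 0.0767, both highest without activated WT array 2. Centring gave 0.0454 in KO and 0.0196 in WT cells for Hnrnpk, and 0.0224 in KO and 0.0651 in WT cells for Mir142. Quantile normalization gave 0.133 in KO and 0.133 in WT cells for Mir142, and 0.0167 in WT cells for Nsrp1. The causes were not tested. Signal near background limits the dim members, since 223 genes were above it in no group.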

Other observations

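Genes that carry the seed of miR-680, at Mir680-1, Mir680-2 and Mir680-3, were above background in at least 1 group each, and were named here in part after their values were seen. Mir680-1 had 7.53, 7.03 and 9.60 in activated KO and 6.90, 8.66 and 6.69 in activated WT cells, against 7.63, 7.62 and 6.43 in native KO and 6.12, 6.50 and 7.16 in native WT cells. Mir680-3 had 7.83, 7.55 and 8.82 in activated KO and 7.60, 8.40 and 7.40 in activated WT cells, against 7.70, 8.004 and 7.72 in native KO and 7.82, 7.97 and 7.78 in native WT cells. Activated KO array 3 and activated WT array 2, the arrays with the highest backgrounds (7.31 and 6.72), gave the highest value of their group at all 3 loci.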
